A study of Mus musculus with 12 samples.

Results

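The collagen genes were taken as every row of the gene table whose name has the form Col, a type number, the letter a and a chain number, with a mean deposited count of at least 10 over the 12 libraries. Of 19336 named genes, 44 matched this form and 36 passed the limit. The 36 were 10 genes of fibrillar collagens, 7 of basement membrane collagens (types IV, XV and XVIII) and 19 of other types. All 36 also passed the filter on low counts that left 15656 genes to be tested. At the limit, Col13a1 and Col22a1 were the lowest genes kept, with mean counts of 19.9 and 22.0, and Col10a1 and Col4a3 were the highest left out, with 7.47 and 5.51. The other genes left out, Col14a1, Col6a6, Col6a4, Col28a1, Col24a1 and Col17a1, had mean counts of 4.60 or less.

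The libraries came from cultured hippocampal neurons of WT mice taken at postnatal day 4. The 4 groups had 3 libraries each. DAPT+sErbB4 cultures received 20 µM DAPT, a small-molecule inhibitor of γ-secretase, and then 20 nM sErbB4 for 4 h. DAPT cultures received the inhibitor and then only the carrier of sErbB4, sErbB4 cultures received the carrier of DAPT and then sErbB4, and vehicle cultures received both carriers. DAPT was given overnight after 8 d in culture, although the sources differ on its exact length, and sErbB4 is the soluble ectodomain of ErbB4, a receptor for Nrg1. The study describes the replicates as platings from several mice and litters without saying how these were shared out, so the spread between libraries is taken as that between platings, and the cultures are a mixture of neurons and other cells.

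Collagens are proteins of the extracellular matrix in which α chains wind around each other into a triple helix, each gene coding for one kind of chain. Fibrillar collagens form the cables of connective tissue, type IV forms the sheet-like network of basement membranes, types XV and XVIII are heparan or chondroitin sulfate-bearing members of the basement membrane zone, and the rest include fibril-associated, microfibril, network and membrane-spanning types. In brain, much of the fibrillar and type IV collagen lies in the meninges and around blood vessels, while glia and some neurons make others. γ-Secretase cuts many membrane proteins, among them Notch receptors and Type III Nrg1, whose intracellular domain (ICD) is released by the cut.

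Library totals, in units of 1e+06 estimated counts, were 36.5 to 54.4, of which 18.7 to 30.8 lay on named genes. Levels are given as CPM, estimated counts scaled to 1e+06 named counts with TMM (a scaling that sets most genes equal between libraries), and collagen genes together took 0.0379 to 0.0576% of the named counts. The values did not rise with exon length (Spearman correlation of -0.0443 over 12534 genes), so they were treated as levels per length and not as numbers of reads, and levels of different genes were compared as they stand. On the second principal component of all genes, which held 10.6% of the variance, sErbB4 replicate 1 and vehicle replicate 3 lay highest, at 18.3 and 8.16. The other 10 libraries lay between -8.41 (sErbB4 replicate 3) and 0.80, so vehicle replicate 3 was no farther from 0 than sErbB4 replicate 3. Counts below were repeated without sErbB4 replicate 1 and vehicle replicate 3. Neuronal markers were present in all libraries, with the summed level of 9 neuron markers between 957 and 1229 CPM, and 8 astrocyte markers summed to 5937 to 7313 CPM.

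The effect of γ-secretase inhibition was read in a pair of comparisons that share no library, DAPT against vehicle, and DAPT+sErbB4 against sErbB4, the second of which stands for nuclear back signaling in the study. Most collagen genes that were called were lower with DAPT in both, while 23 and 21 of the 36 were not called. In DAPT against vehicle, 12 of the 36 were lower with DAPT and 1 was higher, where a gene is called at an adjusted p under 0.05 in edgeR's quasi-likelihood test together with a log2 fold change beyond 0.32 in either direction, the fold limit. Over all genes tested, 6.92% were called lower and 4.66% higher in this comparison. In DAPT+sErbB4 against sErbB4, 14 collagen genes were lower with DAPT+sErbB4 and 1 was higher, where 7.15% of all genes were called lower and 4.55% higher. The median log2 fold change of the 36 was -0.16 and -0.29 in these comparisons, beside 0.01 for all genes in each.

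There were 11 genes called in both comparisons in the same direction, 10 lower and 1 higher, beside 8.11% of all genes. A further 2 were called only in DAPT against vehicle, 4 only in DAPT+sErbB4 against sErbB4, and 19 in neither. The sign of the change was the same in both for 32 of the 36, beside 78.2% of all genes. Averaged over both comparisons (the mean DAPT effect), 14 were lower and 1 higher, where 7.7% and 5.54% of all genes were called. Counted by library, 17 collagen genes were lower and 4 higher in every DAPT library than in every vehicle library, against 21.1% and 20% of all genes, and 19 were lower and 3 higher in every DAPT+sErbB4 than in every sErbB4 library, against 19.9% and 18.8%. Over both, 11 were lower and 1 higher in all 6 libraries with DAPT than in all 6 without, against 11.8% and 8.6%. No collagen gene had a DAPT effect that differed with sErbB4 at the threshold (0 called by edgeR, DESeq2 or limma, with 1 of 36 at an unadjusted p under 0.05 in edgeR, and 0% of all genes called below 0 and 0.00639% above). The count for DAPT against vehicle depended on single libraries, with 7 genes called without DAPT replicate 3 and 8 without vehicle replicate 2. The count for DAPT+sErbB4 against sErbB4 stayed between 14 and 16 whichever library was left out. Without sErbB4 replicate 1 and vehicle replicate 3, 12 and 15 genes were called in these comparisons, with Col5a3 and Col9a2 lost and Col6a1 gained in DAPT against vehicle and Col27a1 lost and Col11a2 gained, as higher, in DAPT+sErbB4 against sErbB4.

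**Figure D1:**
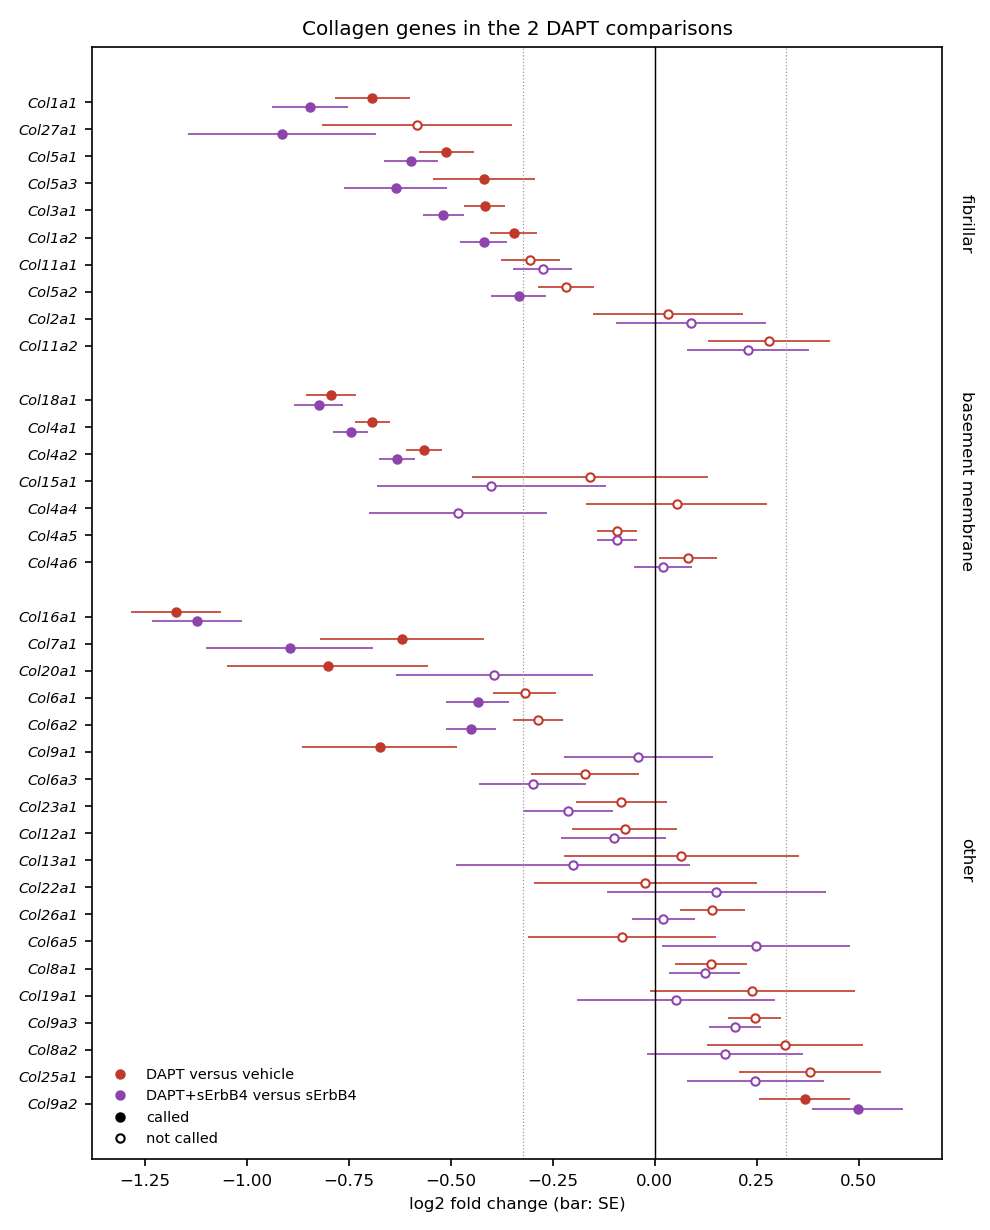
Log2 fold change (x axis, bars are SE) of each of the 36 collagen genes in DAPT against vehicle (red) and in DAPT+sErbB4 against sErbB4 (purple), by class, with filled points for called genes and dotted lines at the fold limit. Most filled points lie left of 0, with Col16a1 farthest out at -1.17 and -1.12, and only Col9a2 has filled points to the right.

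Summed levels were lower with DAPT in each class, given as a description with no test. The fibrillar genes summed to 139.8 ± 7.91 CPM with DAPT, against 179 ± 6.07 with vehicle, and 121 ± 2.41 with DAPT+sErbB4, against 165 ± 6.89 with sErbB4 (SD, n = 3 each). The basement membrane genes summed to 154 ± 6.59 CPM with DAPT, against 216 ± 3.88 with vehicle, and 136 ± 2.95 with DAPT+sErbB4, against 197 ± 4.79 with sErbB4. For the 19 other genes the sums were 164 ± 6.16 CPM with DAPT, against 172 ± 0.760 with vehicle, and 150.1 ± 0.906 with DAPT+sErbB4, against 162 ± 5.98 with sErbB4. None of the 3 sums overlapped between groups in either comparison. Those of the other genes came close, at 158 to 170.5 CPM with DAPT, against 171 to 172 CPM with vehicle. In that class the lower sums rested on Col16a1. Its mean level was 12.2 CPM with DAPT, against 27.5 with vehicle, and 11.2 with DAPT+sErbB4, against 24.6 with sErbB4. In both comparisons the gap of Col16a1 alone was larger than that of the class sum. In this culture, as bulk RNA, fewer cells of a type and less RNA per cell cannot be told apart.

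Of the 10 fibrillar genes, 5 were called lower in DAPT against vehicle and 7 in DAPT+sErbB4 against sErbB4, none higher. Beside this, 6.92% and 7.15% of all genes were called lower. The class medians were -0.38 and -0.47. Type I collagen, the most abundant collagen of connective tissue, is built of α1 chains (Col1a1) and α2 chains (Col1a2). Col1a1 had 17.2, 17.5 and 14.9 CPM in DAPT cultures, against 28.3, 28.3 and 23.4 CPM in vehicle cultures, and 13.0, 13.6 and 14.2 CPM in DAPT+sErbB4 cultures, against 22.1, 26.4 and 24.9 CPM in sErbB4 cultures. All 6 libraries with DAPT lay below all 6 without it. Col1a1 fell to 0.619 and 0.557 times its level in vehicle and sErbB4 cultures, log2 fold changes of -0.69 (SE 0.09, edgeR adjusted p = 0.000250) and -0.84 (SE 0.09, edgeR adjusted p = 5.71e-05).

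Col1a2 had 38.4, 39.1 and 35.4 CPM in DAPT cultures, against 48.1, 50.05 and 45.3 CPM in vehicle cultures, and 32.7, 33.3 and 31.4 CPM in DAPT+sErbB4 cultures, against 42.5, 46.4 and 41.1 CPM in sErbB4 cultures. Its groups did not overlap in either comparison, and the drop was smaller, with log2 fold changes of -0.35 (SE 0.06, edgeR adjusted p = 0.00116) and -0.42 (SE 0.06, edgeR adjusted p = 0.000297). In DAPT against vehicle the Col1a2 call was lost under the fold limit without DAPT replicate 3, at -0.29 (edgeR adjusted p = 0.00596), and without vehicle replicate 2, at -0.31 (edgeR adjusted p = 0.00632). The ratio of Col1a1 to Col1a2 was 0.420 to 0.448 with DAPT, against 0.516 to 0.588 with vehicle, and 0.398 to 0.452 with DAPT+sErbB4, against 0.519 to 0.605 with sErbB4. Every ratio with DAPT was thus below every ratio without it, as a description with no test.

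Type III collagen (Col3a1) forms thin fibrils together with type I and is a ligand of the receptor Adgrg1. Col3a1 had 31.3, 32.3 and 28.9 CPM in DAPT cultures, against 42.5, 41.0 and 39.8 CPM in vehicle cultures, and 25.7, 27.0 and 28.2 CPM in DAPT+sErbB4 cultures, against 37.1, 39.4 and 39.4 CPM in sErbB4 cultures. The groups did not overlap in either comparison. Col3a1 changed by -0.42 (SE 0.05, edgeR adjusted p = 0.000136) and -0.52 (SE 0.05, edgeR adjusted p = 2.42e-05) on the log2 scale. By exon position, 1.44% of its exon bases are shared with another gene.

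Type V collagen starts the assembly of type I fibrils and limits their width. Col5a1 had 7.95, 7.86 and 6.82 CPM in DAPT cultures, against 11.0, 10.4 and 10.7 CPM in vehicle cultures, and 6.56, 6.51 and 6.54 CPM in DAPT+sErbB4 cultures, against 10.4, 9.86 and 9.40 CPM in sErbB4 cultures. Each library with DAPT was under each library without it, and log2 fold changes were -0.51 (SE 0.07, edgeR adjusted p = 0.000228) and -0.60 (SE 0.07, edgeR adjusted p = 6.78e-05). About 2.5% of the exon bases of Col5a1 overlap antisense or other transcripts, and use of strand in counting was not stated. Col5a3 had 4.87, 6.17 and 4.51 CPM in DAPT cultures, against 6.85, 6.403 and 7.37 CPM in vehicle cultures, and 3.96, 3.98 and 4.41 CPM in DAPT+sErbB4 cultures, against 7.12, 6.54 and 5.52 CPM in sErbB4 cultures. DAPT replicate 2 was the library nearest to the vehicle cultures, and neither comparison had overlapping groups.

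Col5a3 fell by 0.42 (SE 0.13, edgeR adjusted p = 0.0319) on the log2 scale with DAPT against vehicle and by 0.63 (SE 0.13, edgeR adjusted p = 0.00358) with DAPT+sErbB4 against sErbB4. The first Col5a3 call was lost when 1 of 4 libraries was left out, with edgeR adjusted p = 0.115 without DAPT replicate 1, 0.147 without DAPT replicate 3, 0.0813 without vehicle replicate 1 and 0.101 without vehicle replicate 3. Col5a2, the partner chain of Col5a1, passed only in DAPT+sErbB4 against sErbB4, at -0.33 (SE 0.07, edgeR adjusted p = 0.00405) beside -0.22 (SE 0.07, edgeR adjusted p = 0.0380) in DAPT against vehicle. That Col5a2 call was lost under the fold limit without DAPT+sErbB4 replicate 1, at -0.27 (edgeR adjusted p = 0.0158), and without sErbB4 replicate 2, at -0.31 (edgeR adjusted p = 0.0172).

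Col27a1, a fibrillar collagen known from cartilage, was measured at low levels. Col27a1 had 1.36, 1.16 and 1.11 CPM in DAPT cultures, against 2.03, 1.57 and 1.82 CPM in vehicle cultures, and 1.30, 0.977 and 0.996 CPM in DAPT+sErbB4 cultures, against 2.70, 1.91 and 1.55 CPM in sErbB4 cultures. The groups did not overlap in either comparison, although sErbB4 replicate 1 was high. Its log2 fold change was -0.91 (SE 0.23, edgeR adjusted p = 0.0134) with DAPT+sErbB4 against sErbB4 and -0.58 (SE 0.23, edgeR adjusted p = 0.0968) with DAPT against vehicle, where it was not called. The Col27a1 call was lost without DAPT+sErbB4 replicate 2, at -0.84 (edgeR adjusted p = 0.0534), and without DAPT+sErbB4 replicate 3, at -0.86 (edgeR adjusted p = 0.0507). It was also lost when the libraries of the other groups were kept out of the fit, at -0.91 (edgeR adjusted p = 0.0527), and without sErbB4 replicate 1 and vehicle replicate 3, at -0.68 (edgeR adjusted p = 0.0559).

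The mean DAPT effect on the log2 scale was -0.77 (SE 0.07) for Col1a1, -0.38 (SE 0.04) for Col1a2, -0.47 (SE 0.04) for Col3a1, -0.55 (SE 0.05) for Col5a1, -0.28 (SE 0.05) for Col5a2, -0.53 (SE 0.09) for Col5a3 and -0.75 (SE 0.16) for Col27a1. The edgeR test called these other than Col5a2, which was under the fold limit (adjusted p = 0.000852).

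The remaining fibrillar genes code for cartilage-type fibrils of types II and XI, and none of them was called in either comparison with all libraries. Col11a1, a chain of type XI, averaged 15.4 ± 0.4996 CPM with DAPT, against 19.0 ± 0.848 with vehicle, and 14.4 ± 0.419 with DAPT+sErbB4, against 17.4 ± 2.00 with sErbB4, with a mean DAPT effect of -0.29 (SE 0.05, edgeR adjusted p = 0.000920), under the fold limit, although it passed without sErbB4 replicate 3, at -0.32 (edgeR adjusted p = 0.000261). Col11a1 was also called lower against vehicle without DAPT replicate 2, at -0.33 (edgeR adjusted p = 0.0190), or vehicle replicate 1, at -0.34 (edgeR adjusted p = 0.0189), and against sErbB4 without sErbB4 replicate 3, at -0.34 (edgeR adjusted p = 0.00424). Its partner Col11a2 had a mean DAPT effect of 0.25 (SE 0.11, edgeR adjusted p = 0.0831), and without sErbB4 replicate 1 it was called higher, at 0.36 (edgeR adjusted p = 0.00262). The same held for Col11a2 in DAPT+sErbB4 against sErbB4, at 0.45 (edgeR adjusted p = 0.0134) without sErbB4 replicate 1 and 0.45 (edgeR adjusted p = 0.0165) without vehicle replicate 3 as well. Col2a1, the main collagen of cartilage, had a mean DAPT effect of 0.06 with an SE of 0.13.

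**Figure D2:**
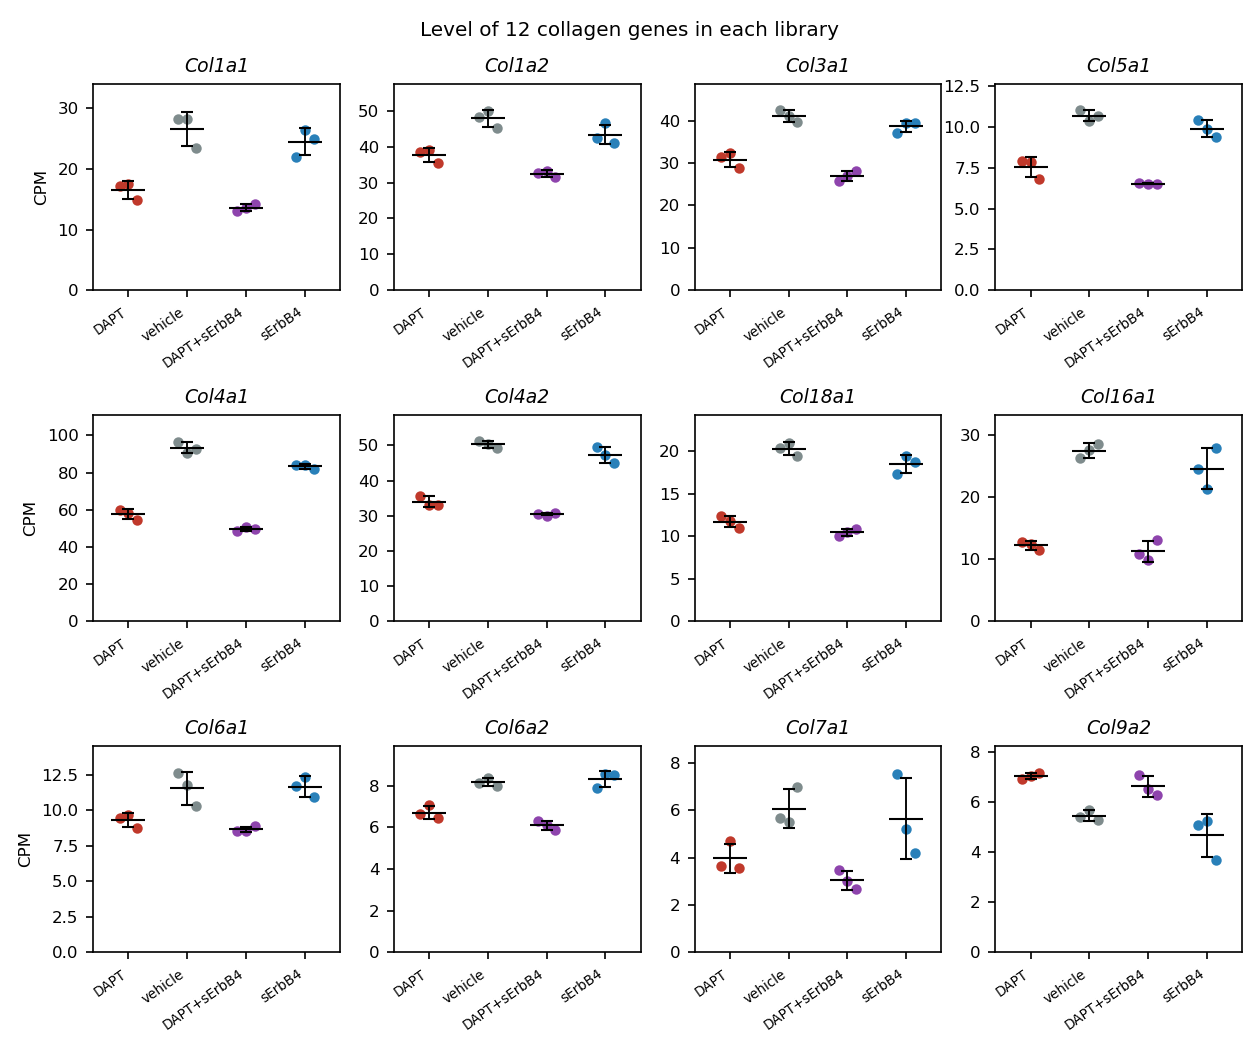
Level (y axis, CPM, from 0) of 12 collagen genes in each library, with points for the 3 libraries of each group and a black bar for the mean and SD. In each of the 11 panels other than Col9a2 both DAPT groups lie below their partners without DAPT, and for Col4a1 the 3 DAPT libraries lie between 54.7 and 60.1 CPM, against 90.5 to 96.5 CPM with vehicle.

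Type IV collagen chains are coded in head-to-head gene pairs that share the DNA between their start sites. In most basement membranes the network is built of the chains of Col4a1 and Col4a2, while chains of Col4a5 and Col4a6 form a second network in some tissues. Of the 7 basement membrane genes, 3 were called lower in both comparisons, Col18a1, Col4a1 and Col4a2, and none higher. Over all genes, 6.92% and 7.15% were called lower in these comparisons. The class medians were -0.16 and -0.48. Col4a1 had the highest mean level of all 36 collagen genes, 71.0 CPM.

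Col4a1 had 60.1, 58.5 and 54.7 CPM in DAPT cultures, against 96.5, 90.5 and 92.8 CPM in vehicle cultures, and 48.6, 50.7 and 49.8 CPM in DAPT+sErbB4 cultures, against 84.1, 84.2 and 81.8 CPM in sErbB4 cultures. The DAPT groups lay far below their partners, with a spread within groups of at most 2.99 CPM (SD). Col4a1 fell to 0.619 times its vehicle level with DAPT and to 0.597 times its sErbB4 level with DAPT+sErbB4, log2 fold changes of -0.69 (SE 0.04, edgeR adjusted p = 8.93e-07) and -0.75 (SE 0.04, edgeR adjusted p = 4.43e-07). Col4a2 had 35.7, 33.0 and 33.1 CPM in DAPT cultures, against 51.1, 50.4 and 49.4 CPM in vehicle cultures, and 30.6, 30.1 and 30.9 CPM in DAPT+sErbB4 cultures, against 49.4, 47.4 and 45.1 CPM in sErbB4 cultures. Its order of groups was the same as for Col4a1, again with no overlap between a DAPT group and its partner. Col4a2 changed by -0.57 (SE 0.04, edgeR adjusted p = 4.88e-06) and -0.63 (SE 0.04, edgeR adjusted p = 1.95e-06) on the log2 scale.

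The Col4a5 and Col4a6 pair, set beside it after its values were seen, was not called in either comparison. Col4a5 had 36.5, 32.3 and 34.1 CPM in DAPT cultures, against 36.1, 36.5 and 37.1 CPM in vehicle cultures, and 29.1, 31.4 and 31.1 CPM in DAPT+sErbB4 cultures, against 31.7, 33.7 and 32.3 CPM in sErbB4 cultures. DAPT and vehicle cultures overlapped, while the DAPT+sErbB4 cultures were below the sErbB4 cultures by little, and the mean DAPT effect was -0.09 (SE 0.03, edgeR adjusted p = 0.0542). Col4a6 had 14.8, 13.8 and 13.5 CPM in DAPT cultures, against 14.0, 13.3 and 12.4 CPM in vehicle cultures, and 11.4, 12.3 and 12.3 CPM in DAPT+sErbB4 cultures, against 12.7, 12.1 and 10.7 CPM in sErbB4 cultures. Its groups overlapped in both comparisons, with a mean DAPT effect of 0.05 (SE 0.05, edgeR adjusted p = 0.474). The ratio of Col4a1 to Col4a5 was 1.61 to 1.81 with DAPT, against 2.48 to 2.67 with vehicle, and 1.60 to 1.67 with DAPT+sErbB4, against 2.50 to 2.65 with sErbB4, and that of Col4a1 to Col4a2 was 1.65 to 1.77 with DAPT, against 1.80 to 1.89 with vehicle, and 1.59 to 1.69 with DAPT+sErbB4, against 1.70 to 1.82 with sErbB4. The first ratio separated all libraries with DAPT from all without it, and was a description with no test of its own.

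The start regions of both type IV pairs are shown because the chains of one pair were called and those of the other were not. Sequences are RefSeq promoter windows of GRCm38.p6, 300 bases around a start site, written on the strand of the gene. Capitals mark matches on either strand to GTGGGAA, a core of the motif bound by RBPJ, the DNA-binding partner of Notch, to CCAAT, to GGGCGG, known as the GC box, or to TATAAA. The Col4a1 window is chr8:11312777-11313076, minus strand, the Col4a2 window is chr8:11312555-11312854, plus strand, the Col4a5 window is chrX:141475169-141475468, plus strand, and the Col4a6 window is chrX:141474027-141474326, minus strand.
Col4a1: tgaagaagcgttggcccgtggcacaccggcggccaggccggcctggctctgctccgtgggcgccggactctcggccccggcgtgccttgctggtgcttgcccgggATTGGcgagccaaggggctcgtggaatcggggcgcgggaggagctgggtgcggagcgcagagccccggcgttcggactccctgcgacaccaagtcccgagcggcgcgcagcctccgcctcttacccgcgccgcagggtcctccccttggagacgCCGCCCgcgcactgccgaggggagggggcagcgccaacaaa
Col4a2: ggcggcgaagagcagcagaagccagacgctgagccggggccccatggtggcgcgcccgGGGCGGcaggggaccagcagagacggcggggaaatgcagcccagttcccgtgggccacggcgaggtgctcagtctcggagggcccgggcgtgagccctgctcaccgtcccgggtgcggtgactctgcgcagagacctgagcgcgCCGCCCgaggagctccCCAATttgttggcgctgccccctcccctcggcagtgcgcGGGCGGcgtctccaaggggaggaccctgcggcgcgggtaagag
Col4a5: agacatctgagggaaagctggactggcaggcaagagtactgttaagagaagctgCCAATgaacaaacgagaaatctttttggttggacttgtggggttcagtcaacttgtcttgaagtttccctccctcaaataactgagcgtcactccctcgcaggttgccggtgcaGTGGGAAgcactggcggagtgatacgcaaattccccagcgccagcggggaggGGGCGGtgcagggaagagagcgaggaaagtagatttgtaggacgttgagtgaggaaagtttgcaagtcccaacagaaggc
Col4a6: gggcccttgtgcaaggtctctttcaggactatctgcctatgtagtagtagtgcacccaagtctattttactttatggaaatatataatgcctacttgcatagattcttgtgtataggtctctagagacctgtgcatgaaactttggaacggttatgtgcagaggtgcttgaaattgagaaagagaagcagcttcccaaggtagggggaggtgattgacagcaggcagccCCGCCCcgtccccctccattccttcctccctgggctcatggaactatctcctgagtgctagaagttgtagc

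The Col4a1 and Col4a2 windows overlap by 78 bases, and in the GENCODE M21 annotation the exons of Col4a1 (chr8:11198423-11312826, minus strand) overlap those of Col4a2 (chr8:11312805-11449287, plus strand) by 22 bases, 0.295% of the Col4a1 exon length. The Col4a1 window holds 1 match to CCAAT and 1 GC box, the Col4a2 window 1 and 3. The Col4a5 window holds 1 match to GTGGGAA, 1 to CCAAT and 1 GC box, and the Col4a6 window 1 GC box. RefSeq windows were at hand for 29 of the 36 collagen genes, 32 windows in all. GTGGGAA was found in 1 of the 32, that of Col4a5, CCAAT in 11, GGGCGG in 21 and TATAAA in 3. Over 32851 mouse promoter windows of 300 bases the shares were 6.38% for GTGGGAA, 37.4% for CCAAT, 35.7% for GGGCGG and 13.6% for TATAAA, and such matches are letters in a window, not bound sites.

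**Figure D3:**
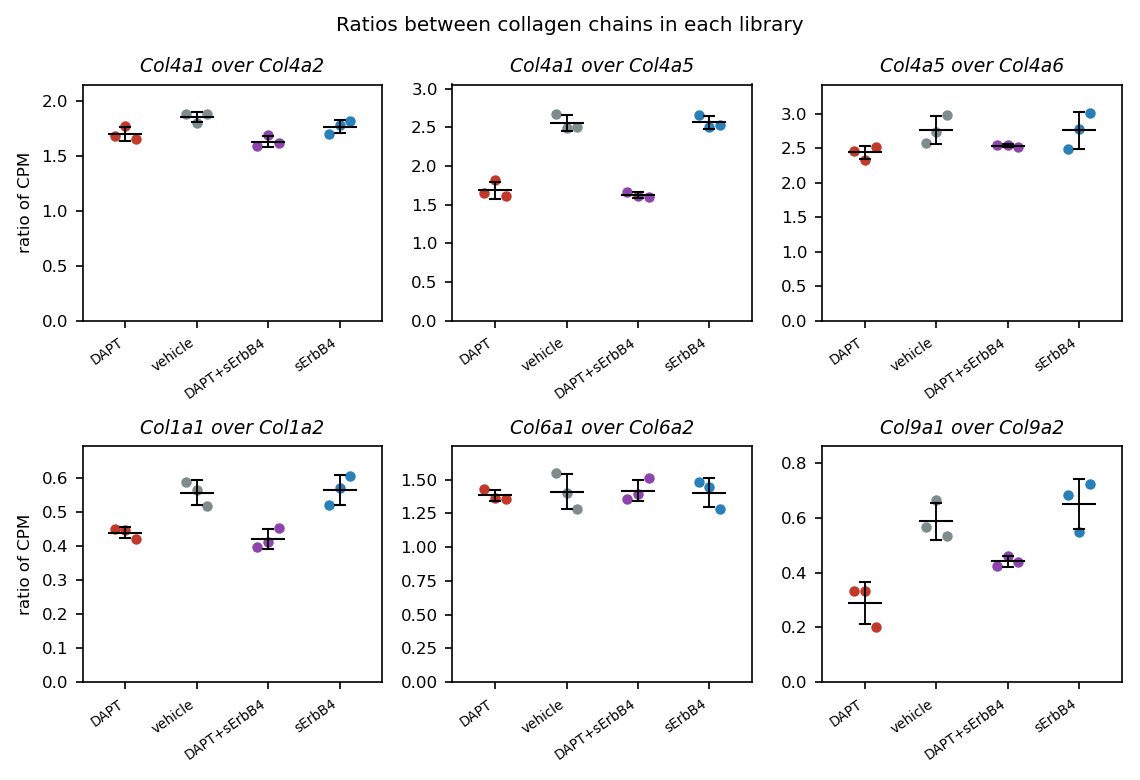
Ratio of the CPM values of 2 collagen chains (y axis, from 0) in each library, with points for libraries and a black bar for the mean and SD of 3. The Col4a1 over Col4a5 ratio lies at 1.61 to 1.81 with DAPT against 2.48 to 2.67 with vehicle, while Col6a1 over Col6a2 overlaps between all groups.

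Col18a1 codes for the chain whose C-terminal fragment is endostatin, an inhibitor of vessel growth. Col18a1 had 12.4, 11.8 and 11.0 CPM in DAPT cultures, against 20.4, 21.01 and 19.5 CPM in vehicle cultures, and 10.00, 10.5 and 10.8 CPM in DAPT+sErbB4 cultures, against 17.3, 19.5 and 18.8 CPM in sErbB4 cultures. The DAPT groups were again below their partners with no overlap. Log2 fold changes of Col18a1 were -0.79 (SE 0.06, edgeR adjusted p = 4.11e-06) and -0.82 (SE 0.06, edgeR adjusted p = 2.78e-06), the largest of the basement membrane class. The mean DAPT effects of Col18a1, Col4a1 and Col4a2 were -0.81 (SE 0.04), -0.72 (SE 0.03) and -0.60 (SE 0.03), all called. Col15a1, its closest relative, was low, at 0.968 ± 0.0664 CPM with DAPT, against 1.08 ± 0.297 with vehicle, and 1.04 ± 0.194 with DAPT+sErbB4, against 1.37 ± 0.403 with sErbB4, with a mean DAPT effect of -0.28 (SE 0.20, edgeR adjusted p = 0.313). Col4a4, which pairs with the low Col4a3, had a mean DAPT effect of -0.21 (SE 0.16, edgeR adjusted p = 0.315), and neither was called.

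Among the 19 other genes, 4 were called lower and 1 higher in each comparison, and the class median was near 0, at -0.07 and -0.04. Shares over all genes were 6.92% and 7.15% lower and 4.66% and 4.55% higher. Col16a1 changed most of all 36. It codes for a fibril-associated collagen that binds integrins and links fibrils to the cell surface. Col16a1 had 12.7, 12.5 and 11.4 CPM in DAPT cultures, against 26.3, 27.5 and 28.6 CPM in vehicle cultures, and 10.9, 9.81 and 13.0 CPM in DAPT+sErbB4 cultures, against 24.5, 21.3 and 27.8 CPM in sErbB4 cultures. No library with DAPT exceeded 13.0 CPM and none without it was below 21.3 CPM. The level was 0.443 times that of vehicle cultures with DAPT and 0.460 times that of sErbB4 cultures with DAPT+sErbB4, log2 fold changes of -1.17 (SE 0.11, edgeR adjusted p = 1.80e-05) and -1.12 (SE 0.11, edgeR adjusted p = 2.36e-05), with a mean DAPT effect of -1.15 (SE 0.08).

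The Col16a1 start region is shown because it belongs to the gene with the largest change. The window is chr4:130047590-130047889, plus strand, in the same build and with capitals for the same motifs, 1 match to CCAAT and 2 GC boxes.
Col16a1: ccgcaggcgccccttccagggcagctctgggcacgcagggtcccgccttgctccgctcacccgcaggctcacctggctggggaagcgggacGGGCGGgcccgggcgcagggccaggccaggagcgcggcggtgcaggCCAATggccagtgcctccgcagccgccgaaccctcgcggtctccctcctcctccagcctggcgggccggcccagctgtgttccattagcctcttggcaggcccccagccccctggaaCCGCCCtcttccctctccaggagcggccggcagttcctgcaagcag

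Col7a1, which forms the anchoring fibrils under the epidermis, had 3.66, 4.69 and 3.56 CPM in DAPT cultures, against 5.67, 5.50 and 7.01 CPM in vehicle cultures, and 3.48, 3.00 and 2.67 CPM in DAPT+sErbB4 cultures, against 7.53, 5.23 and 4.21 CPM in sErbB4 cultures. DAPT replicate 2 and sErbB4 replicate 3 came closest to the other side, and the groups still did not overlap. Col7a1 was lower in both comparisons, at -0.62 (SE 0.20, edgeR adjusted p = 0.0444) and -0.89 (SE 0.20, edgeR adjusted p = 0.00776). The call against vehicle was near the threshold and was lost without any one of 9 libraries, all but sErbB4 replicates 1 and 3 and DAPT replicate 2, with edgeR adjusted p between 0.0515 (without DAPT+sErbB4 replicate 1) and 0.158 (without DAPT replicate 3). It was also lost with replicate number as a block (edgeR adjusted p = 0.0558), with loci that have no gene name kept (adjusted p = 0.0613) and with the ribosomal Rn45s left out (adjusted p = 0.0510). The mean DAPT effect of Col7a1 was -0.76 (SE 0.14, edgeR adjusted p = 0.00145).

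Type VI collagen forms beaded microfibrils around cells, from one chain each of Col6a1, Col6a2 and a further gene such as Col6a3. Col6a1 had 9.47, 9.65 and 8.72 CPM in DAPT cultures, against 12.6, 11.7 and 10.3 CPM in vehicle cultures, and 8.56, 8.50 and 8.85 CPM in DAPT+sErbB4 cultures, against 11.7, 12.3 and 10.9 CPM in sErbB4 cultures. The DAPT range ended below the lowest vehicle library. Col6a1 was called lower with DAPT+sErbB4 against sErbB4, at -0.43 (SE 0.08, edgeR adjusted p = 0.00169), and was just under the fold limit with DAPT against vehicle, at -0.32 (SE 0.08, edgeR adjusted p = 0.0114). Against vehicle Col6a1 passed without DAPT replicate 1, at -0.32 (edgeR adjusted p = 0.0301), without DAPT replicate 2, at -0.35 (edgeR adjusted p = 0.0208), or without vehicle replicate 3, at -0.40 (edgeR adjusted p = 0.00301).

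Col6a2, its neighbour on chromosome 10, had 6.63, 7.06 and 6.43 CPM in DAPT cultures, against 8.14, 8.37 and 8.01 CPM in vehicle cultures, and 6.30, 6.12 and 5.87 CPM in DAPT+sErbB4 cultures, against 7.89, 8.55 and 8.51 CPM in sErbB4 cultures. Again the groups did not overlap, and the same comparison passed, at -0.45 (SE 0.06, edgeR adjusted p = 0.000260), beside -0.29 (SE 0.06, edgeR adjusted p = 0.00864) in DAPT against vehicle. Against vehicle Col6a2 passed without DAPT replicate 2, at -0.32 (edgeR adjusted p = 0.00969). Mean DAPT effects were -0.38 (SE 0.05) for Col6a1 and -0.37 (SE 0.04) for Col6a2, both called. The ratio of Col6a1 to Col6a2 was 1.36 to 1.43 with DAPT, against 1.28 to 1.55 with vehicle, and 1.36 to 1.51 with DAPT+sErbB4, against 1.28 to 1.48 with sErbB4, which overlaps between all groups. Col6a3 and Col6a5 were not called, with mean DAPT effects of -0.24 (SE 0.09, edgeR adjusted p = 0.0958) and 0.08 (SE 0.16, edgeR adjusted p = 0.732).

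Type IX collagen is a fibril-associated collagen made of 1 chain each of Col9a1, Col9a2 and Col9a3. Their log2 fold changes were -0.67, 0.37 and 0.24 in DAPT against vehicle and -0.04, 0.50 and 0.20 in DAPT+sErbB4 against sErbB4. The chains were not tested against each other. Col9a2 was the collagen gene called higher. Col9a2 had 6.90, 7.02 and 7.15 CPM in DAPT cultures, against 5.40, 5.67 and 5.28 CPM in vehicle cultures, and 7.09, 6.51 and 6.26 CPM in DAPT+sErbB4 cultures, against 5.07, 5.23 and 3.68 CPM in sErbB4 cultures. Every library with DAPT was above every library without it. Col9a2 rose by 0.37 (SE 0.11, edgeR adjusted p = 0.0331) with DAPT against vehicle and by 0.50 (SE 0.11, edgeR adjusted p = 0.00688) with DAPT+sErbB4 against sErbB4 on the log2 scale. The first call was lost when any 1 of the 6 libraries compared was left out, with edgeR adjusted p between 0.0588 (without DAPT replicate 1) and 0.0965 (without vehicle replicate 1), through DAPT replicates 2 and 3 and vehicle replicates 2 and 3. The mean DAPT effect of Col9a2 was 0.43 (SE 0.08, edgeR adjusted p = 0.00112).

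Col9a3, given here after its values were seen, had the next highest level after Col4a1, at 63.4 CPM on average. Col9a3 had 76.8, 68.9 and 71.2 CPM in DAPT cultures, against 63.0, 60.4 and 59.6 CPM in vehicle cultures, and 65.4, 62.9 and 64.5 CPM in DAPT+sErbB4 cultures, against 60.8, 56.9 and 50.4 CPM in sErbB4 cultures. Its levels with DAPT were above those of the partner group in both comparisons, with adjusted p values of 0.0167 and 0.0436 from edgeR, and its log2 fold changes of 0.24 and 0.20 were under the fold limit, as was its mean DAPT effect of 0.22 (SE 0.05, edgeR adjusted p = 0.00245). Of its exon bases, 6.07% overlap Tcfl5 on the other strand.

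Col9a1 had 2.30, 2.32 and 1.44 CPM in DAPT cultures, against 3.05, 3.76 and 2.82 CPM in vehicle cultures, and 3.00, 3.00 and 2.74 CPM in DAPT+sErbB4 cultures, against 3.46, 2.87 and 2.66 CPM in sErbB4 cultures. It was low with DAPT alone, most of all in DAPT replicate 3, while the DAPT+sErbB4 and sErbB4 cultures overlapped. Col9a1 was called lower with DAPT against vehicle, at -0.67 (SE 0.19, edgeR adjusted p = 0.0242), and not with DAPT+sErbB4 against sErbB4, at -0.04 (SE 0.18, edgeR adjusted p = 0.908). The test of that difference, the interaction, gave 0.63 (SE 0.26, unadjusted p = 0.0343 and adjusted p = 1.00 in edgeR), so the difference did not pass. The Col9a1 call was lost without DAPT replicate 3, at -0.45 (edgeR adjusted p = 0.0827), without vehicle replicate 1, at -0.71 (edgeR adjusted p = 0.0529), and without vehicle replicate 2, at -0.55 (edgeR adjusted p = 0.0914), and when the libraries of the other groups were kept out of the fit, at -0.67 (edgeR adjusted p = 0.0589). Its mean DAPT effect of -0.36 was not called (edgeR adjusted p = 0.0518), and it passed without DAPT replicate 1 (adjusted p = 0.0469), DAPT replicate 2 (adjusted p = 0.0414), sErbB4 replicate 3 (adjusted p = 0.0471) or vehicle replicate 3 (adjusted p = 0.0468), with replicate number as a block (adjusted p = 0.0280), or with a mean of at least 1 CPM as the filter (adjusted p = 0.0489). The ratio of Col9a1 to Col9a2 was 0.201 to 0.333 with DAPT, against 0.534 to 0.663 with vehicle, and 0.423 to 0.461 with DAPT+sErbB4, against 0.549 to 0.722 with sErbB4, with no overlap in either comparison.

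Col20a1, another fibril-associated collagen, was low. Col20a1 had 1.40, 1.61 and 0.980 CPM in DAPT cultures, against 2.23, 2.75 and 1.96 CPM in vehicle cultures, and 1.78, 1.41 and 1.42 CPM in DAPT+sErbB4 cultures, against 2.50, 2.07 and 1.47 CPM in sErbB4 cultures. DAPT and vehicle cultures did not overlap, and DAPT+sErbB4 and sErbB4 cultures did. Col20a1 was called lower with DAPT against vehicle, at -0.80 (SE 0.25, edgeR adjusted p = 0.0346), and not with DAPT+sErbB4 against sErbB4, at -0.39 (SE 0.24, edgeR adjusted p = 0.2803), and the interaction of 0.41 (SE 0.34) did not pass either. The call was lost without DAPT+sErbB4 replicate 3 (edgeR adjusted p = 0.0505), DAPT replicate 1 (adjusted p = 0.0734), DAPT replicate 3 (adjusted p = 0.135), vehicle replicate 1 (adjusted p = 0.0787) or vehicle replicate 2 (adjusted p = 0.122). The mean DAPT effect of Col20a1 was -0.60 (SE 0.17, edgeR adjusted p = 0.0169).

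The other fibril-associated genes were not called. Col12a1, a large collagen of tendon and nerve sheaths, had a mean DAPT effect of -0.09 (SE 0.09, edgeR adjusted p = 0.505), Col19a1, which in mouse is made by some hippocampal and cortical neurons, one of 0.15 (SE 0.17, edgeR adjusted p = 0.567), and Col22a1, known from tissue junctions, one of 0.06 (SE 0.19, edgeR adjusted p = 0.852). The membrane-spanning collagens were not called either. Col25a1, a neuronal collagen found in amyloid plaques, had 0.31 (SE 0.12, edgeR adjusted p = 0.0606), which passed without DAPT replicate 2, at 0.37 (edgeR adjusted p = 0.0289), or without vehicle replicate 3, at 0.38 (edgeR adjusted p = 0.0338). Col23a1 and Col13a1 had mean DAPT effects of -0.15 (SE 0.08, edgeR adjusted p = 0.276) and -0.07 (SE 0.20, edgeR adjusted p = 0.834).

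The network collagens of type VIII, found in the vessel wall and the cornea, were Col8a1 and Col8a2, with mean DAPT effects of 0.13 (SE 0.06, edgeR adjusted p = 0.221) and 0.24 (SE 0.14, edgeR adjusted p = 0.186). Col26a1 was well expressed, at 23.3 ± 1.99 CPM with DAPT, against 21.1 ± 1.61 with vehicle, and 22.0 ± 0.866 with DAPT+sErbB4, against 21.7 ± 1.78 with sErbB4 (SD, n = 3 each), with a mean DAPT effect of 0.08 (SE 0.06, edgeR adjusted p = 0.284). None of these 3 was called.

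Added sErbB4 left no collagen gene past the threshold, with or without DAPT. With DAPT+sErbB4 against DAPT, which the study calls local back signaling, edgeR called 0 of the 36 (and 0% of all genes), 13 had an unadjusted p under 0.05, and DESeq2 and limma also called 0. The fold changes were mostly below 0, however, 30 of 36, with a median of -0.16 beside 0.00 for all genes. In 19 of the 36 every DAPT+sErbB4 library was below every DAPT library and in 1 above, against 9.82% and 9.17% of all genes. The lowest adjusted p was that of Col4a1, at -0.22 (SE 0.04, edgeR adjusted p = 0.237), followed by Col1a2 at -0.21 (SE 0.06, edgeR adjusted p = 0.338) and Col3a1 at -0.19 (SE 0.05, edgeR adjusted p = 0.338). All 10 fibrillar genes and 6 of the 7 basement membrane genes were below 0, and the largest value above 0 was that of Col9a1, 0.54 (SE 0.19, edgeR adjusted p = 0.442). The summed level of the 9 neuron markers was 1163 to 1229 CPM in DAPT+sErbB4 cultures, against 1075 to 1129 CPM in DAPT cultures, and its part in these values was not tested.

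With sErbB4 against vehicle, edgeR likewise called 0 of the 36 (0.0255% of all genes were called lower and 0.00639% higher), 5 had an unadjusted p under 0.05, and DESeq2 and limma called 0. Here 28 of 36 fold changes were below 0, with a median of -0.10 beside 0.00 for all genes, and 6 genes were lower and 0 higher in every sErbB4 library than in every vehicle library, against 5.27% and 5.49% of all genes. Col4a1 again had the lowest adjusted p, at -0.16 (SE 0.04, edgeR adjusted p = 0.424). Neuron markers summed to 1055 to 1158 CPM with sErbB4, against 957 to 1023 CPM with vehicle, and their part was not tested.

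**Figure D4:**
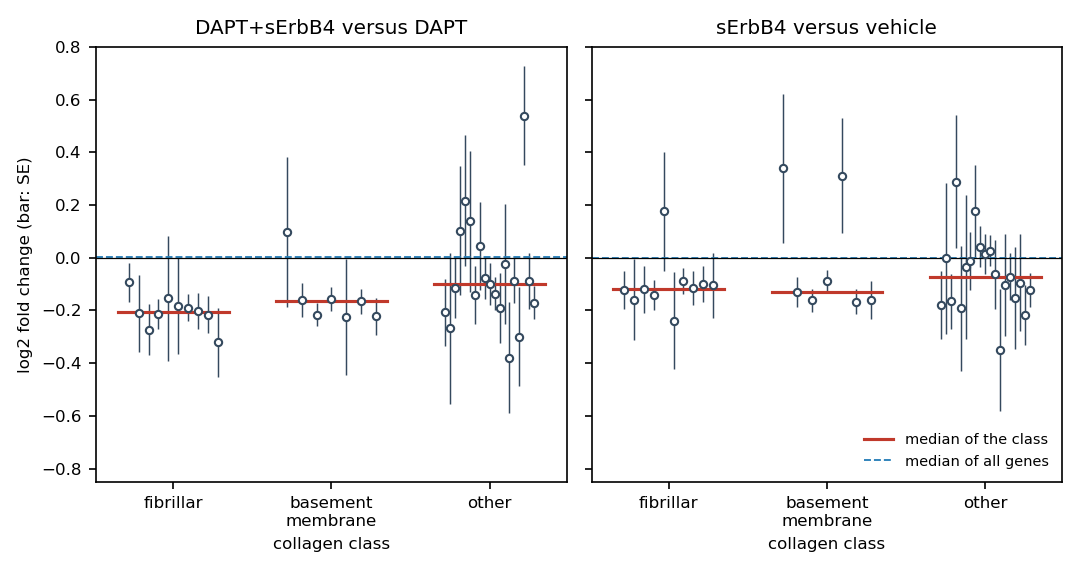
Log2 fold change (y axis, bars are SE) of the 36 collagen genes with sErbB4 added under DAPT (left) and without DAPT (right), by class, with a red line at the class median and a dashed blue line at the median of all genes. No gene was called, and the class medians lie at or below -0.07 on both sides.

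The comparison of DAPT with sErbB4, the study's overall comparison, uses libraries of both DAPT comparisons and so is not independent of them. It gave 10 collagen genes lower and 2 higher with DAPT (6.04% and 4.05% of all genes). The 2 higher were Col9a2, at 0.58 (SE 0.11, edgeR adjusted p = 0.00299), and Col9a3, at 0.37 (SE 0.06, edgeR adjusted p = 0.00176). The lower ones included Col16a1, at -1.01 (SE 0.11, edgeR adjusted p = 5.68e-05), Col18a1, at -0.66 (SE 0.06, edgeR adjusted p = 1.44e-05), and Col4a1, at -0.53 (SE 0.04, edgeR adjusted p = 7.12e-06). Without DAPT replicate 3 the count was 7, and without sErbB4 replicate 2 it was 8. Col9a3 was not called without sErbB4 replicate 3, at 0.30 (edgeR adjusted p = 0.00398). Among the lower ones, Col9a1 was near the threshold, at -0.58 (edgeR adjusted p = 0.0489). Its call was lost in many alternatives, among them RLE scaling (edgeR adjusted p = 0.0516) and Rn45s left out (edgeR adjusted p = 0.0525). The calls of Col27a1 and Col3a1 were each lost without any one of several libraries.

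Collagen chains are hydroxylated, glycosylated and folded in the endoplasmic reticulum by a set of enzymes and chaperones, of which 20 were listed and all were tested. With DAPT against vehicle 8 were called lower and 1 higher, and with DAPT+sErbB4 against sErbB4 9 lower and 1 higher. Beside this, 6.92% and 7.15% of all genes were called lower and 4.66% and 4.55% higher. The list medians were -0.26 and -0.29, beside 0.01 for all genes. Serpinh1 (Hsp47), the chaperone that binds the procollagen triple helix, had 165, 169.5 and 155 CPM in DAPT cultures, against 289.7, 286 and 279.8 CPM in vehicle cultures, and 144, 149 and 155 CPM in DAPT+sErbB4 cultures, against 266, 281 and 287 CPM in sErbB4 cultures. Its groups were far apart in both comparisons, with log2 fold changes of -0.81 (SE 0.04, edgeR adjusted p = 3.23e-07) and -0.90 (SE 0.04, edgeR adjusted p = 1.20e-07). Fkbp10 (FKBP65), a prolyl isomerase that helps procollagen fold, had 42.4, 42.8 and 38.2 CPM in DAPT cultures, against 70.4, 71.0 and 68.2 CPM in vehicle cultures, and 38.5, 37.9 and 38.5 CPM in DAPT+sErbB4 cultures, against 65.0, 71.1 and 61.7 CPM in sErbB4 cultures. The same order held, with log2 fold changes of -0.77 (SE 0.06, edgeR adjusted p = 3.64e-06) and -0.78 (SE 0.06, edgeR adjusted p = 2.75e-06). The summed level of the 20 genes was 1053 to 1071 CPM with DAPT, against 1327 to 1371 with vehicle, and 1013 to 1036 with DAPT+sErbB4, against 1270.2 to 1343 with sErbB4.

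After secretion, proteases trim the ends of procollagen and lysyl oxidases crosslink the fibrils. Of 13 such genes listed, 11 were tested (Tll2 and Loxl4 were too low). Called were 2 lower and 1 higher in DAPT against vehicle, beside 6.92% and 4.66% of all genes. In DAPT+sErbB4 against sErbB4 5 were lower and 2 higher, beside 7.15% and 4.55%. The enhancers of the C-terminal trimming went opposite ways in both comparisons. Pcolce2 rose by 0.86 (SE 0.14, edgeR adjusted p = 0.00106) and 0.79 (SE 0.14, edgeR adjusted p = 0.00156) on the log2 scale, and Pcolce changed by -0.47 (SE 0.11, edgeR adjusted p = 0.00983) and -0.42 (SE 0.11, edgeR adjusted p = 0.0162). The list medians were -0.25 and -0.32.

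Of 11 collagen receptors, 2 were called lower and none higher in each comparison, and the list medians were -0.05 and 0.06. Shares over all genes were 6.92% and 7.15% called lower and 4.66% and 4.55% called higher. For the mean DAPT effect 2 receptors were called lower and 1 higher, beside 7.7% and 5.54% of all genes. The higher one was Itga2, a gene of low level (0.795 CPM on average). Adgrg1 (GPR56), a receptor of collagen III in the developing brain, had 80.3, 81.9 and 72.0 CPM in DAPT cultures, against 166, 158 and 155 CPM in vehicle cultures, and 70.7, 72.9 and 75.2 CPM in DAPT+sErbB4 cultures, against 152, 163 and 162 CPM in sErbB4 cultures. Each library without DAPT had a far higher level, with log2 fold changes of -1.03 (SE 0.05, edgeR adjusted p = 2.22e-07) and -1.12 (SE 0.05, edgeR adjusted p = 1.00e-07). Ddr2, a receptor tyrosine kinase for fibrillar collagens, changed by -0.39 (SE 0.07, edgeR adjusted p = 0.00249) and -0.46 (SE 0.07, edgeR adjusted p = 0.000712).

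**Figure D5:**
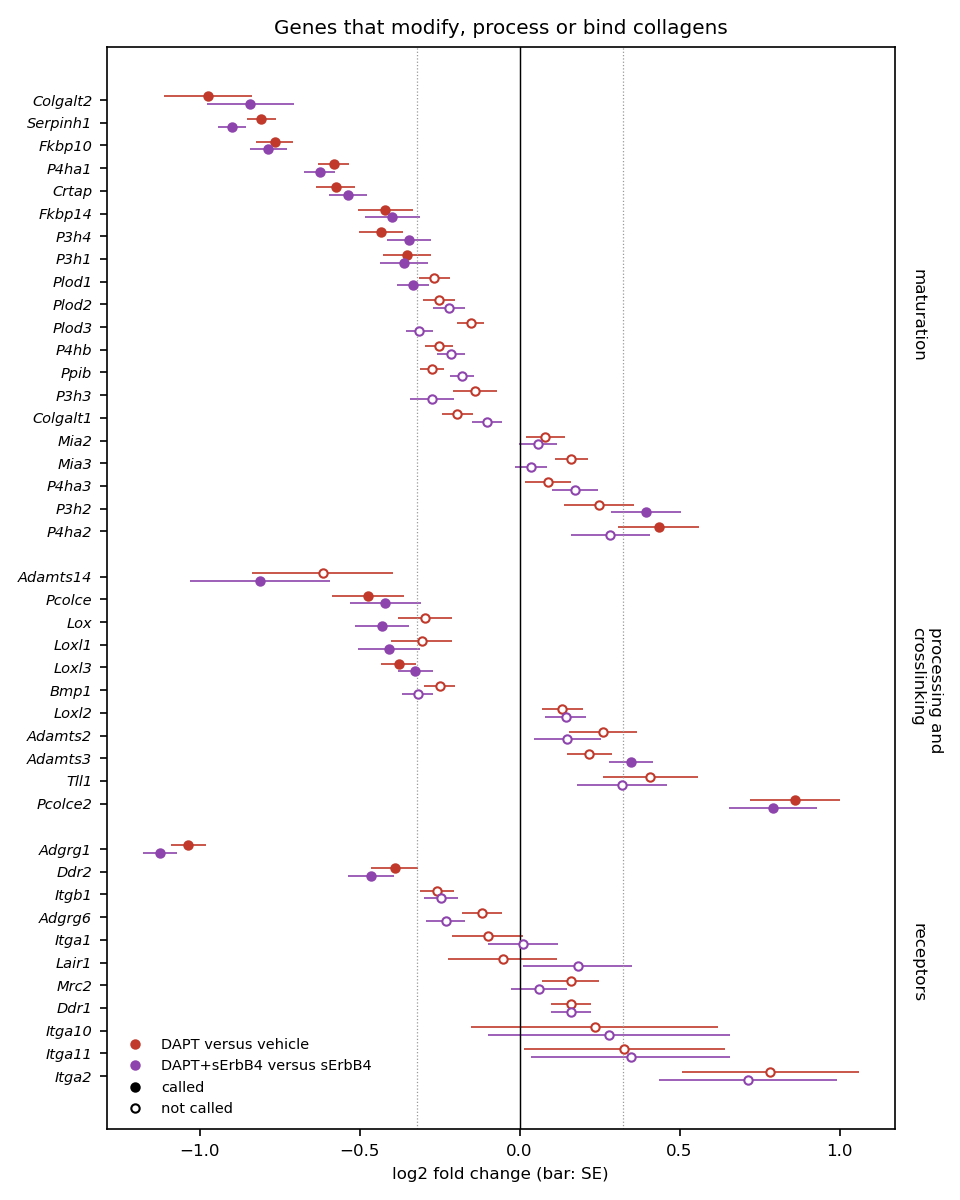
Log2 fold change (x axis, bars are SE) of tested genes that modify, process or bind collagens in DAPT against vehicle (red) and DAPT+sErbB4 against sErbB4 (purple), with filled points for called genes and dotted lines at the fold limit. Serpinh1 at -0.81 and -0.90 and Adgrg1 at -1.03 and -1.12 lie at the left, and Pcolce2 at 0.86 and 0.79 at the right. Colgalt2, a gene of low level (2.85 CPM on average), is also at the left, at -0.97 and -0.84.

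Markers of the cell types that can make collagens in such cultures were read beside these results. Each marker count below stands beside the shares over all genes. These were 6.92% called lower and 4.66% higher in DAPT against vehicle, and 7.15% and 4.55% in DAPT+sErbB4 against sErbB4. Of 7 tested of 10 markers of pericytes and smooth muscle, 4 were called lower in both comparisons and none higher, and their summed level was 40.7 to 43.7 CPM with DAPT, against 70.0 to 72.5 with vehicle, and 37.4 to 38.3 with DAPT+sErbB4, against 60.9 to 66.2 with sErbB4. The largest were Vtn, made by brain pericytes, with a mean DAPT effect of -2.34 (SE 0.09, edgeR adjusted p = 5.21e-09), and Tagln, a smooth muscle actin-binding protein, with -1.17 (SE 0.10, edgeR adjusted p = 4.07e-06). Kcnj8, Abcc9 and Myh11 were too low to test, and Kcnj8 was at 0 in 3 libraries. Of 8 fibroblast and leptomeningeal markers, 3 were called higher and 1 lower in DAPT against vehicle and 3 higher and 3 lower in DAPT+sErbB4 against sErbB4. Dcn, a proteoglycan that binds collagen fibrils, had a mean DAPT effect of 0.60 (SE 0.05, edgeR adjusted p = 3.74e-06), and Pdgfra, which oligodendrocyte precursors share, one of -0.51 (SE 0.04, edgeR adjusted p = 9.65e-07). The summed level of the 8 was 159.7 to 179 CPM with DAPT, against 163 to 171 with vehicle, and 146 to 153 with DAPT+sErbB4, against 162 to 189 with sErbB4.

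Endothelial markers were near the lower end, with 3 of 8 too low to test (Tek, Flt1 and Ly6c1, the last at 0 in 9 libraries), and 1 of 5 called lower in each comparison. This was Slco1c1, a thyroid hormone transporter of the blood-brain barrier that astrocytes also express, with a mean DAPT effect of -1.97 (SE 0.04, edgeR adjusted p = 3.38e-11). The 5 summed to 20.1 to 20.9 CPM with DAPT, against 64.6 to 65.2 with vehicle, and 19.5 to 20.7 with DAPT+sErbB4, against 60.4 to 66.4 with sErbB4, most of it Slco1c1, since Pecam1, Kdr, Cldn5 and Cdh5 averaged 0.434, 1.06, 1.85 and 1.92 CPM. Of 6 radial glia markers, 3 were called lower in each comparison and none higher, among them Fabp7, at -1.89 (SE 0.04, edgeR adjusted p = 8.37e-11), and Nes, at -0.63 (SE 0.02, edgeR adjusted p = 5.18e-09), and the 6 summed to 2127 to 2265 CPM with DAPT, against 4039 to 4434 with vehicle, and 1957 to 2047 with DAPT+sErbB4, against 3770.2 to 4176 with sErbB4. Of 6 oligodendrocyte precursor markers, 4 were called lower in each, with Pdgfra and Cspg4 also in the lists above, led by Olig1, at -1.34 (SE 0.04, edgeR adjusted p = 3.01e-10), and Olig2, at -1.06 (SE 0.02, edgeR adjusted p = 9.56e-11), and the 6 summed to 557 to 595 CPM with DAPT, against 1073 to 1084 with vehicle, and 521 to 547 with DAPT+sErbB4, against 999 to 1079 with sErbB4.

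Of 8 astrocyte markers, 3 were called lower and 1 higher in each comparison, with Aldoc at -0.61 (SE 0.03, edgeR adjusted p = 1.29e-07) and the gap junction protein Gja1 at 0.61 (SE 0.04, edgeR adjusted p = 2.67e-07), and the 8 summed to 6895 to 7313 CPM with DAPT, against 6226 to 6991 with vehicle, and 6529.5 to 6801 with DAPT+sErbB4, against 5937 to 6212 with sErbB4. Of 6 microglia markers, 1 was called lower in DAPT against vehicle and 2 in DAPT+sErbB4 against sErbB4, and the sums overlapped, at 56.1 to 58.3 CPM with DAPT, against 56.4 to 69.8 with vehicle, and 54.7 to 62.1 with DAPT+sErbB4, against 58.0 to 64.4 with sErbB4. Of 9 neuron markers, 3 were called higher in DAPT against vehicle and 1 in DAPT+sErbB4 against sErbB4, with Snap25 at 0.35 (SE 0.04, edgeR adjusted p = 2.92e-05) and Syt1 at 0.34 (SE 0.06, edgeR adjusted p = 0.000917). The 9 summed to 1075 to 1129 CPM with DAPT, against 957 to 1023 with vehicle, and 1163 to 1229 with DAPT+sErbB4, against 1055 to 1158 with sErbB4. In DAPT against vehicle and DAPT+sErbB4 against sErbB4, the median log2 fold changes were -0.58 and -0.58 for pericyte markers, 0.21 and -0.01 for fibroblast, -0.35 and -0.21 for endothelial, -0.27 and -0.32 for radial glia, -0.55 and -0.54 for oligodendrocyte precursor, -0.16 and -0.11 for astrocyte, -0.01 and -0.21 for microglia and 0.16 and 0.13 for neuron markers, beside 0.01 for all genes. Pericyte, endothelial, radial glia and oligodendrocyte precursor sums were thus lower with DAPT in both comparisons with no overlap. The endothelial sum was mostly Slco1c1, and 3 of the 6 radial glia markers were not called in each comparison. The called collagen genes other than Col9a1, Col9a2 and Col20a1 were lower in both with no overlap. They were chosen by these same comparisons, so that separation is largely set by the choice and is no separate result. Of all genes, 21.1% and 19.9% were lower with no overlap in these comparisons. Col9a1 and Col20a1 were lower with no overlap only in DAPT against vehicle. Neuron sums were higher with DAPT in both comparisons with no overlap. The fibroblast sums overlapped in DAPT against vehicle and were lower with DAPT+sErbB4 than with sErbB4, the astrocyte sums overlapped in DAPT against vehicle and were higher with DAPT+sErbB4 than with sErbB4, and the microglia sums overlapped in both. The part of cell makeup in the collagen values was not tested.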

How the data were processed

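Poly(A)-selected RNA of 12 libraries from WT mouse hippocampal cultures was sequenced. The deposited table gives one estimated count for each gene in each library, which the authors derived with IsoformSwitchAnalyzeR from StringTie assemblies of HISAT2 alignments to mm10, after trimming with Trimmomatic. The submitters' notes also name FastQC, MultiQC and limma. Versions and use of strand are not given in the sources used here. Within a library, 100% of values were whole multiples of a step between 6.32e-05 and 9.94e-05 (within 0.05 steps), and values did not rise with exon length, so the deposited estimated counts have the form of abundances per length times one factor for the library. They were not taken as numbers of reads, read depth per gene is unknown, and a count model only approximates their error. The values were rounded to whole numbers. Of 21312 loci, 1976 without a gene name (43.4 to 51.8% of counts) entered neither the library sizes nor the tests. Rn45s held 31.4 to 44.6% of named counts and TMM factors were 0.926 to 1.18.

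Analyses used R 4.3.3 and edgeR 4.0.16 (filterByExpr, TMM, quasi-likelihood F test, a mean for each of 4 groups, 8 residual degrees of freedom, Benjamini-Hochberg adjustment over 15656 genes). Calls needed both an adjusted p below 0.05 and a log2 fold change beyond 0.32 in size. The SE is the log2 fold change divided by the root of F. The script was tested on simulated counts drawn from the count model itself, which cannot show how well that model suits these values. P-values measure the spread between these libraries, taken as separate platings. The alternatives were RLE scaling, 2 other filters, DESeq2 1.42.0, limma 3.58.1 on log2(CPM + 2) with cyclic loess, fits of the compared libraries only, replicate number as a block, unnamed loci kept, Rn45s left out, 2 libraries left out, and each library left out. No pairing of libraries by replicate number was detected, and the sources do not state whether there was one.

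The collagen genes, their classes and the gene lists were chosen with earlier results of these data known. Genes are named by rule: every collagen gene with its mean DAPT effect, values by library for up to 16 genes called in either DAPT comparison and for the pairs Col1a1 and Col1a2, Col4a1 and Col4a2, and Col6a1 and Col6a2, and from each list the 2 called genes of at least 5 CPM with the largest mean DAPT effect. Loci and exon overlaps are from GENCODE M21 (GRCm38) and promoter windows from RefSeq GRCm38.p6.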

Additional observations from a re-analysis of the deposited data

How the results depend on the processing

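The direction of every called collagen gene was kept in all alternatives run. The lower counts of 7 and 8 in DAPT against vehicle were without DAPT replicate 3 and without vehicle replicate 2. The count of collagen genes called in DAPT against vehicle (13) ranged from 7 to 15 with 1 library left out, that in DAPT+sErbB4 against sErbB4 (15) from 14 to 16, that in DAPT against sErbB4 (12) from 7 to 13, and that of the mean DAPT effect (15) from 15 to 17. Under the other alternatives they were 11 to 13, 14 to 15, 10 to 13 and 12 to 16, limma giving the lowest of the last. The counts of 0 for DAPT+sErbB4 against DAPT, sErbB4 against vehicle and the interaction stayed 0 throughout. Single-gene values under an alternative were tallied for the mean DAPT effect of all 36 genes. In DAPT against vehicle and DAPT+sErbB4 against sErbB4, only the 17 genes called in either were tallied. DAPT against sErbB4 was left out. Of these 1502 values, 1433 kept direction and side of the threshold, 47 lost a call, 16 gained one and 6 changed sign. Calls gained by genes outside the 17 in those comparisons, such as Col11a1 and Col11a2, are not in the tally. The 6 were uncalled values near 0. The mean DAPT effect of Col12a1 was 0.0153 with 2 libraries left out, and that of Col13a1 was -0.165 to 0.0228 with 1 left out, above 0 without vehicle replicate 1. That of Col22a1 was -0.000302 in limma and -0.0483 to 0.145 with 1 library left out, below 0 without DAPT replicate 2. Col9a1 in DAPT+sErbB4 against sErbB4 was 0.0718 with 2 libraries left out and -0.116 to 0.0720 with 1 left out, above 0 without sErbB4 replicate 1. In limma the mean DAPT effects of Col20a1, Col6a2 and Col9a2 were under the fold limit, as were Col1a2 and Col9a2 in DAPT against vehicle and Col5a2 in DAPT+sErbB4 against sErbB4. The causes were not tested.

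Same-numbered libraries of different groups deviated together little (18 pairs, correlations of -0.590 to 0.529, median 0.0233, 8 over 0.1), and 4 of 12 libraries were closest to their own number. With the replicate block, 12 genes were called in DAPT against vehicle, 15 in DAPT+sErbB4 against sErbB4, 13 in DAPT against sErbB4 and 16 for the mean DAPT effect, Col7a1 being lost in DAPT against vehicle, Col11a2 gained in DAPT against sErbB4 and Col9a1 gained for the mean DAPT effect. Genes under about 2 CPM had SE of the log2 fold change up to 0.29 in DAPT against vehicle, which limits what the test could call there.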
